A study of Mus musculus with 6 samples.

Results

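Matricellular genes encode secreted proteins that sit in the extracellular matrix and signal to cells rather than bear load. The set described here has 10 such genes, namely 4 of the CCN family (Ccn1, Ccn2, Ccn4 and Ccn5), the thrombospondins Thbs1 and Thbs2, Postn (periostin), Spp1 (osteopontin), Sparc (osteonectin) and Tnc (tenascin-C). It was chosen by name, and a gene was measured by the probe sets annotated to its symbol alone. For 9 of the 10 genes such a probe set was named, out of 18194 genes named on the array, while Spp1 was not analysed here. Where a gene had several probe sets, the one with the highest mean over the arrays was used and the others served as a check.

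The RNA came from 3T3-L1, a mouse preadipocyte line that turns into fat cells in culture after a hormone cocktail of insulin, 3-isobutyl-1-methylxanthine and dexamethasone. After this induction the cells of the first experiment were exposed for 5 days to the HIV protease inhibitor ritonavir at 20 µM, to the reverse transcriptase inhibitor tenofovir at 1 µM, or to 0.1% ethanol as vehicle. In the second experiment every group carried ritonavir at 20 µM, combined for 5 days with 0.1% DMSO, with c9,t11-CLA at 100 µM or with t10,c12-CLA at 100 µM. These are isomers of conjugated linoleic acid (CLA) that differ in where the conjugated double bonds lie and in which of them is cis. Each of the 6 groups is a pool of RNA from 4 replicate experiments read on 1 array, so there is no spread between replicates, and no difference below carries an error or a p-value.

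Values are log2 intensities after RMA, a method that equalises the distributions of the arrays. The median of all values, 6.55, served as detection level, and 12386 genes exceeded it somewhere and are called detected. The closest pair of arrays, tenofovir and ethanol, gives a yardstick. Between them the robust SD of the log2 difference over all detected genes was 0.113. By the probe sets used, the differences of the 9 matricellular genes lay between -0.15 and 0.24. Their unused probe sets reached -0.44 (Ccn1) and 0.39 (Tnc, under the detection level on both arrays), so the yardstick is that of the probe sets used. Differences no larger than 0.24 are therefore not read as an order below. Of the 12 listed adipocyte markers 10 had a probe set annotated to their symbol alone, and all 10 were detected. Of these, 9 or 10 reached the detection level on each array, Lep being under it on the 4 arrays with ritonavir. Of the listed macrophage markers 5 of 10 were detected (Cd68, Cd14, Csf1r, Fcgr1 and Lyz2) and Adgre1 and Ptprc were not, and of the endothelial markers 3 of 10 were (Eng, Kdr and Esam) and Pecam1 and Cdh5 were not.

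In the CCN family, CCN1 and CCN2 bind integrins and heparan sulphate proteoglycans and are induced by serum, stretch and TGF-beta. Ccn1 and Ccn2 are classical targets of the YAP/TAZ coactivators, which act through TEAD factors, and of SRF with its actin-sensing MRTF cofactors. In adipose biology, CCN2 is known to restrain the differentiation of 3T3-L1 cells, and CCN5 is made by mesenchymal precursors and opposes PPARG activation. Thrombospondins, SPARC and tenascin-C are made by stromal and precursor cells, though not by these alone, and SPARC is known to restrain adipogenesis.

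Promoters are shown for 4 genes with different courses over the arrays, chosen to set Ccn1, which was high with ritonavir and with t10,c12-CLA, beside Thbs2 and Tnc, which were highest with ritonavir, and Postn, whose ritonavir array did not stand out. Each line gives the 250 bases before the most upstream transcription start that RefSeq lists on mouse build GRCm38.p6, on the strand of the gene. Capitals mark matches on either strand to 5 searched motifs. The motif of TEAD factors was searched as CATTCC and that of AP-1 as TGANTCA. For SMAD proteins the letters were CAGAC, and the TATA box was taken as TATAAA, while the motif of SRF is the CArG box.
Ccn1, chr3:145649986-145650235, minus strand: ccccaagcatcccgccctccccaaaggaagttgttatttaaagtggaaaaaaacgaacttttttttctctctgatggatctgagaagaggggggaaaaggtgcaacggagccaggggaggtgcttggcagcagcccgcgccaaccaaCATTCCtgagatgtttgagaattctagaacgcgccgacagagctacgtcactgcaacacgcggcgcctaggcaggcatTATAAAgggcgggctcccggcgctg
Thbs2, chr17:14694263-14694512, minus strand: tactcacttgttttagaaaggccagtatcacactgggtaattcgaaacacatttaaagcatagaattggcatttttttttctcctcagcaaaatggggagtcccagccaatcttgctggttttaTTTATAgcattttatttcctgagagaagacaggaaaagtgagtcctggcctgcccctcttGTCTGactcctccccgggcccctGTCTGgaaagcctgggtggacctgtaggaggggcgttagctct
Tnc, chr4:64047016-64047265, minus strand: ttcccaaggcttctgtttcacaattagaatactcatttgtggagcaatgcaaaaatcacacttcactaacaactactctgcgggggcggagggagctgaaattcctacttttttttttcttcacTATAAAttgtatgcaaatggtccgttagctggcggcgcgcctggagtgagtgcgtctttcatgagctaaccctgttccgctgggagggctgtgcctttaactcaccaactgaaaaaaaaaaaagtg
Postn, chr3:54359017-54359266, plus strand: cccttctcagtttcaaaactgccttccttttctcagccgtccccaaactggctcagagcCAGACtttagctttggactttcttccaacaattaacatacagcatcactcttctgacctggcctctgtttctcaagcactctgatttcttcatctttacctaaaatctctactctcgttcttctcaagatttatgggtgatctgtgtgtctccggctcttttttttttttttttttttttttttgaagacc

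Ccn1 held CATTCC between 103 and 98 bases before its start and TATAAA between 25 and 20 bases before it, and no marked matches overlapped in these 4 windows. Among the 5 measured genes with a window, Sparc included, CATTCC was found in 1, CAGAC in 3, TATAAA in 3 and the AP-1 and CArG motifs in 0. Of all 32851 windows of the same length, CATTCC was in 12.6%, CAGAC in 42.2%, TATAAA in 12.4%, TGANTCA in 6.75% and the CArG box in 1.47%. A match is a description of letters and not evidence of binding.

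Among the CCN genes, Ccn1, Ccn4 and Ccn5 were high on the ritonavir array and on the array with t10,c12-CLA, and Ccn2 on the latter alone. Ccn1 encodes a ligand of integrins that is induced within minutes by growth factors. Its log2 values were 9.60 with ethanol, 11.09 with ritonavir and 9.55 with tenofovir in the first experiment, and 8.81 with DMSO, 8.93 with c9,t11-CLA and 11.03 with t10,c12-CLA in the second. The ritonavir and t10,c12-CLA arrays were the highest and nearly level, and the DMSO and c9,t11-CLA arrays lay below all others. That low position held for 2 of its 4 probe sets, while in the other 2 both arrays lay above ethanol and tenofovir.

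Ccn5 (Wisp2) lacks the cysteine-rich C-terminal module of its relatives and is a Wnt-inducible gene. It had values of 8.19 (ethanol), 9.44 (ritonavir), 8.26 (tenofovir), 8.04 (DMSO), 8.17 (c9,t11-CLA) and 9.41 (t10,c12-CLA). Again the ritonavir and t10,c12-CLA arrays were level, and the other 4 arrays lay within 0.24 of one another. Ccn4 (Wisp1), also Wnt-inducible, stood at 7.98, 9.86 and 8.22 in the first experiment and at 8.22, 8.26 and 9.17 in the second, in the same order of groups. Here ritonavir was clearly above t10,c12-CLA, and the other 4 arrays lay between 7.98 and 8.26.

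Ccn2, the gene of connective tissue growth factor, differed from this. Only 1 array of 6 brought it to the detection level. It had 5.45 (ethanol), 5.58 (ritonavir), 5.44 (tenofovir), 5.48 (DMSO) and 5.05 (c9,t11-CLA), and 7.09 with t10,c12-CLA. The gene thus rests on 1 probe set and 1 array, and the order of the 5 low values is not read.

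The thrombospondin gene Thbs1, whose product activates latent TGF-beta and binds CD36 and CD47, had values of 8.24 (ethanol), 9.38 (ritonavir), 8.35 (tenofovir), 7.35 (DMSO), 7.78 (c9,t11-CLA) and 9.06 (t10,c12-CLA). As for Ccn1, the ritonavir and t10,c12-CLA arrays were the highest. In the probe set used, ritonavir lay above t10,c12-CLA, and c9,t11-CLA above DMSO, by more than the yardstick. These steps were smaller in the other probe set annotated to Thbs1 alone. It had 7.33 with ritonavir and 7.10 with t10,c12-CLA, and c9,t11-CLA was 0.12 above DMSO, both under the detection level. Thbs2, a relative that shapes collagen fibrils and does not activate TGF-beta, stood at 10.37, 10.90 and 10.35 in the first experiment and at 9.78, 9.99 and 10.52 in the second. Ritonavir was the highest, t10,c12-CLA was within the yardstick of ethanol, and the range from the lowest to the highest array was 1.12.

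Tnc encodes a large oligomeric glycoprotein of wounds and developing tissue. Its values were 7.86 (ethanol), 8.86 (ritonavir), 7.90 (tenofovir), 7.09 (DMSO), 7.56 (c9,t11-CLA) and 7.62 (t10,c12-CLA). It was highest with ritonavir, lowest with DMSO, and level between the isomers. Postn, which encodes a collagen-binding fasciclin protein, had 13.10, 13.18 and 12.95 in the first experiment. In the second it had 11.88 with DMSO, 0.12 more with c9,t11-CLA, and 11.35 with t10,c12-CLA. All arrays of the first experiment lay above all of the second, and t10,c12-CLA was the lowest. Sparc, whose product binds collagen and guides its assembly, ranged over only 0.14, from 14.23 to 14.37, near the top of the scale at 15.01, where differences can be compressed.

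**Figure D1:**
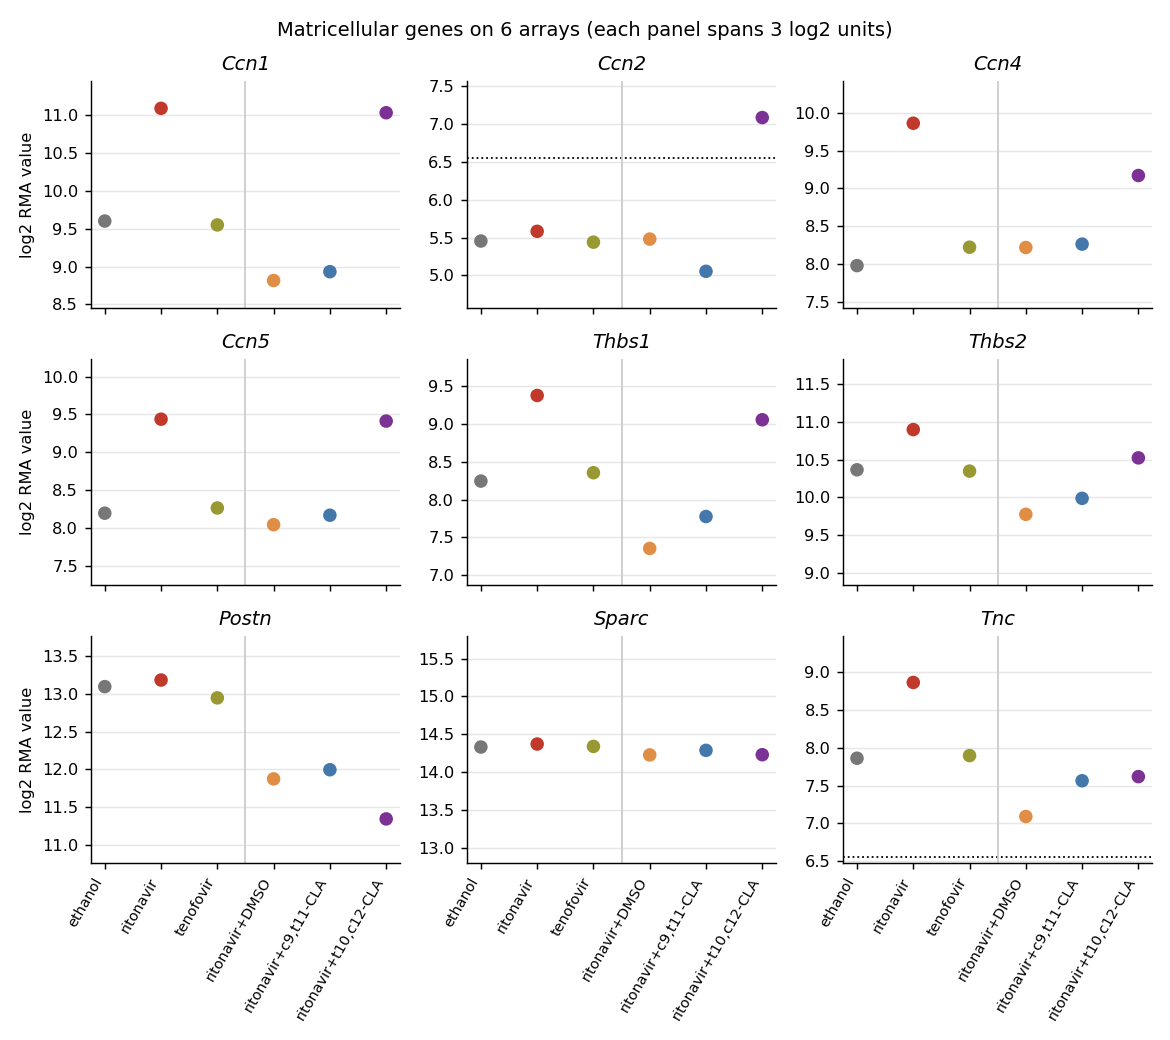
Log2 RMA values (vertical axes, each spanning 3 units) of the 9 matricellular genes on the 6 arrays (horizontal axis, 1 point per array, no replicates), with a grey line between the experiments and a dotted line at the detection level of 6.55 where it lies in range. Ccn1, Ccn5 and Thbs1 peak on the ritonavir and t10,c12-CLA arrays, Ccn2 on the t10,c12-CLA array, and Postn is lower throughout the second experiment.

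Ritonavir was set against ethanol to ask what the drug does to maturing fat cells. On the ritonavir array 5 of the 9 matricellular genes were at least 2-fold higher than on the ethanol array, and 0 were as much lower. They were Ccn4 (3.69-fold), Ccn1 (2.81-fold), Ccn5 (2.37-fold), Thbs1 (2.19-fold) and, at the threshold, Tnc. Of all detected genes 4.56% were at least 2-fold higher in this comparison, 6.39% lower and 10.9% either, and their median log2 difference was 0.00, against 1.00 for the 9 genes. Ranked from the highest difference among 12386 genes, Ccn4 was at place 97, Ccn1 at 214, Ccn5 at 328, Thbs1 at 421 and Tnc at 564. Thbs2 differed by 0.53, Ccn2 by 0.13 between undetected values, Postn by 0.09 and Sparc by 0.04.

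Tnc lay at the threshold, with a difference of 1.00, which came to 0.94 after a further quantile normalization. Probe sets of Ccn1 gave differences from 1.49 to 2.89, those of Ccn4 1.88 and 2.13, and those of Thbs1 1.13 and 0.74. The mean over all probe sets of a gene left 3 of the 9 genes at least 2-fold apart. On the same pair of arrays the mean log2 value of the 10 detected adipocyte markers was 12.93 with ethanol and 9.44 with ritonavir. The part of a changed mix of mature and immature cells in these differences was not tested, and in RNA from a whole culture fewer cells of a type cannot be told apart from less RNA per cell.

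Tenofovir shared the ethanol array as its control, and none of the 9 genes was 2-fold apart on it, as for 0% of all detected genes. By the probe sets used, Ccn4 was highest at 0.24 and Postn lowest at -0.15, while unused ones ranged from -0.44 (Ccn1) to 0.39 (Tnc). The median of the 9 genes was 0.01.

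The DMSO control of the second experiment gives a further array with ritonavir and no CLA. It did not show the pattern of the first ritonavir array. Against the ritonavir array, 7 of the 9 genes were at least 2-fold lower with DMSO, and 0 were as much higher. Among all detected genes 2.07% were at least 2-fold lower, 2.83% higher and 4.91% either. Ccn1 was 4.85-fold lower, Thbs1 4.07-fold, Tnc 3.42-fold, Ccn4 3.12-fold, Ccn5 2.63-fold, Postn 2.48-fold and Thbs2 2.17-fold lower. The median log2 difference of the 9 genes was -1.40, against 0.01 over all detected genes, and Ccn1 was at place 12 from the lowest of 12386. Sparc differed by -0.14 and Ccn2 by -0.10. The mean adipocyte marker level was 12.01 on the DMSO array, against 9.44 on the ritonavir array.

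Against ethanol, which the next values share with the comparison of ritonavir alone, only Postn was at least 2-fold apart, at 2.33-fold lower, and 0 were as much higher, where 2.99% of all detected genes were lower, 1.52% higher and 4.51% either. The log2 differences were -0.89 for Thbs1, -0.79 for Ccn1, -0.77 for Tnc, -0.59 for Thbs2, -0.15 for Ccn5, -0.10 for Sparc, 0.03 for Ccn2 and 0.24 for Ccn4. For Ccn1 the probe sets disagreed, with -0.79 and -0.60 for 2 of them and 0.42 and 0.54 for the other 2, and for Tnc the unused probe set, under the detection level on every array, gave 0.23. The DMSO array differs from the ritonavir array in experiment and in the DMSO recorded for it, and from the ethanol array in the drug as well. Ethanol is recorded for the ethanol array alone, so whether the other groups also held it is not known. These factors cannot be told apart.

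**Figure D2:**
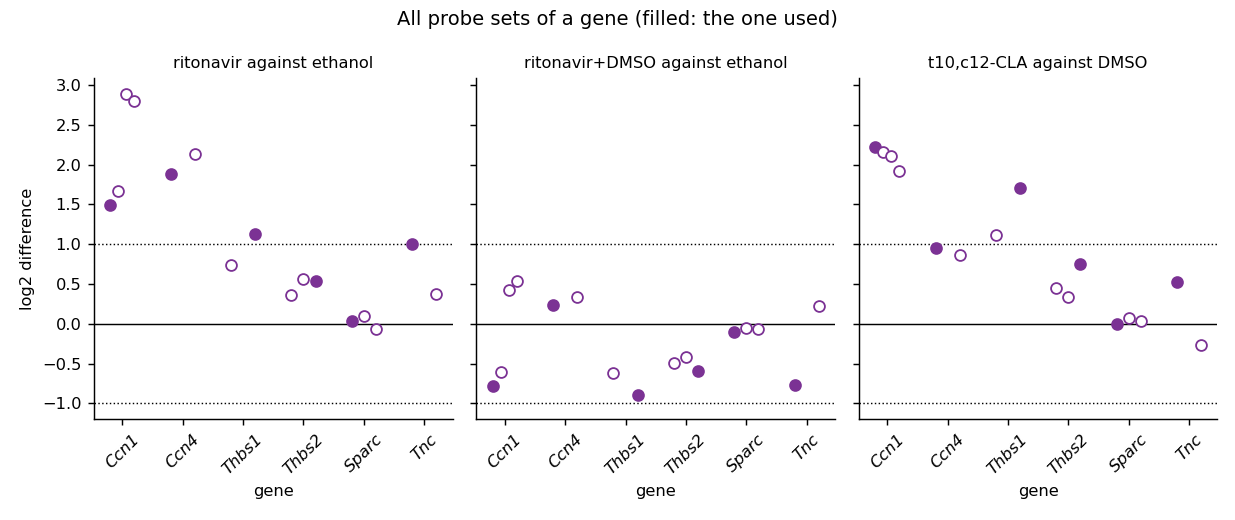
Log2 differences (vertical axis) of each probe set of the 6 genes that have more than 1 (horizontal axis), in 3 comparisons, with filled points for the probe set used, open points for the others and dotted lines at 2-fold. The Ccn1 probe sets lie together with t10,c12-CLA, between 1.92 and 2.22, and on both sides of 0 for ritonavir with DMSO against ethanol.

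The isomers of CLA were compared with DMSO in cells that all carried ritonavir, to ask how the fatty acids act in its presence. The labels record DMSO for the control alone, and if the groups with an isomer had none, its absence cannot be told apart from the isomer in these values. With t10,c12-CLA 4 of the 9 genes were at least 2-fold higher than with DMSO and 0 were as much lower. Ccn1 was 4.66-fold higher, Thbs1 3.25-fold, Ccn2 3.05-fold and Ccn5 2.59-fold. Of all detected genes 0.783% were at least 2-fold higher, 1.05% lower and 1.83% either, and the median log2 difference was 0.95 for the 9 genes and 0.02 for all. Ccn1 was at place 7 from the highest of 12386 genes, Thbs1 at 19, Ccn2 at 24 and Ccn5 at 40. Just under 2-fold, Ccn4 differed by 0.95 and Thbs2 by 0.75.

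Tnc followed with 0.53, Sparc was equal at 0.00, and Postn went the other way at -0.53. With the DMSO value of Ccn2 raised to the detection level, its difference was 0.53, or 1.45-fold, which leaves 3 genes at least 2-fold higher and a median of 0.75. All 4 probe sets of Ccn1 gave differences between 1.92 and 2.22, and both of Thbs1, at 1.70 and 1.12, exceeded 2-fold. A probe set annotated to both Pald1 and Thbs1, which the choice of probe sets leaves out, gave 1.67. Adipocyte markers had a mean level of 12.01 with DMSO and 10.78 with t10,c12-CLA, and the part of this shift in the differences was not tested.

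With c9,t11-CLA, 0 of the 9 genes were at least 2-fold higher or lower, where 0% of detected genes were higher and 0.00807% lower. The largest differences were those of Tnc at 0.47, at place 62 from the highest, and of Thbs1 at 0.42, at place 117. The other Thbs1 probe set gave 0.12, as did the probe set annotated to both Pald1 and Thbs1. For Ccn2 the difference was -0.43 between undetected values, and the others differed by 0.05 to 0.21. The median was 0.12, and the robust SD over all detected genes was 0.136.

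Set directly against each other at the same dose and time, 1 pair of compounds, the isomers differed in 4 of the 9 genes by at least 2-fold, all higher with t10,c12-CLA. These were Ccn1 (4.29-fold), Ccn2 (4.10-fold, or 1.45-fold with the low value raised to the detection level), Thbs1 (2.43-fold) and Ccn5 (2.37-fold), where 0.953% of detected genes were higher by as much, 1.53% lower and 2.48% either. Log2 differences of the others were 0.91 for Ccn4, 0.54 for Thbs2, 0.05 for Tnc, -0.06 for Sparc and -0.65 for Postn. With 1 array per isomer no interval can be given for any of these, and near equal values such as those of Tnc do not show that the isomers act alike on it.

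**Figure D3:**
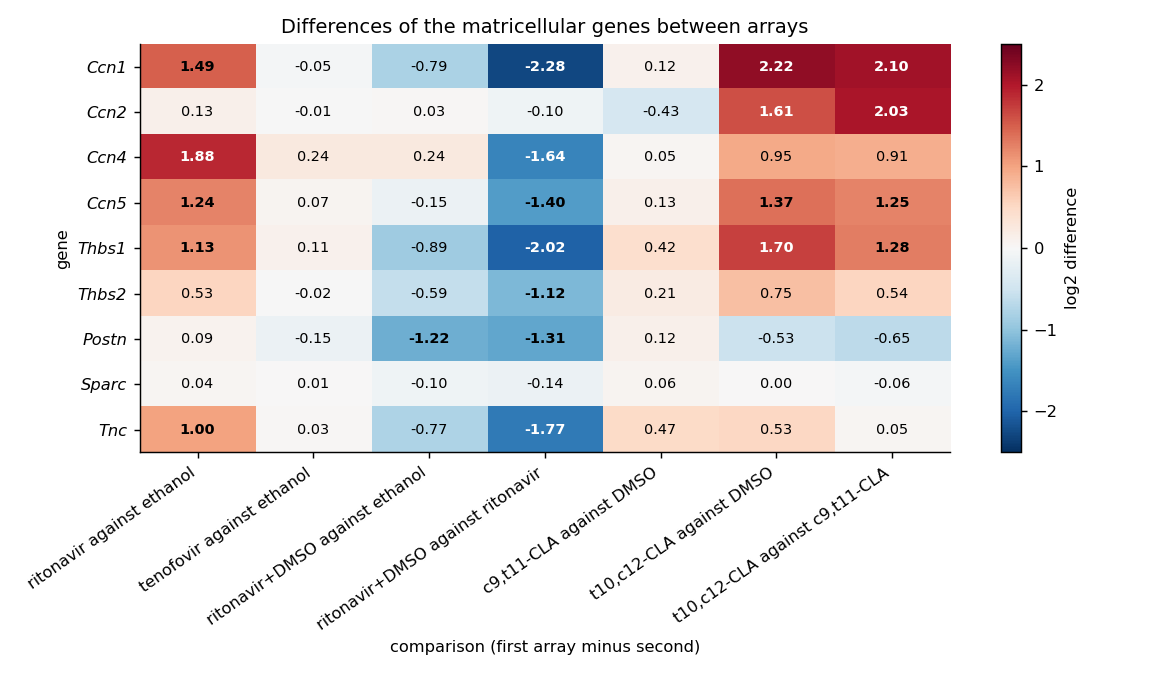
Log2 differences (colour and printed value, first array minus second) of the 9 matricellular genes (rows) in 7 comparisons (columns), with values of at least 1 in size in bold. Columns that share an array are not independent, and the columns of tenofovir and of c9,t11-CLA against DMSO hold no value beyond 0.47 in size.

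Ritonavir against ethanol and t10,c12-CLA against DMSO share no array, so their differences can be set side by side. Of the 5 matricellular genes at least 2-fold higher with ritonavir, 3 (Ccn1, Ccn5 and Thbs1) were also at least 2-fold higher with t10,c12-CLA. Among all 565 genes at least 2-fold higher with ritonavir, 60 (10.6%) were so with t10,c12-CLA, which is 61.9% of the 97 genes higher there. Across the 12386 detected genes, which are not independent replicates, the differences correlated at 0.536. For Ccn2 the differences were 0.13 for ritonavir and 1.61 for t10,c12-CLA. It counted as detected through the t10,c12-CLA array alone. With values raised to the detection level its differences were 0 and 0.53, so no departure from this relation is read for it.

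**Figure D4:**
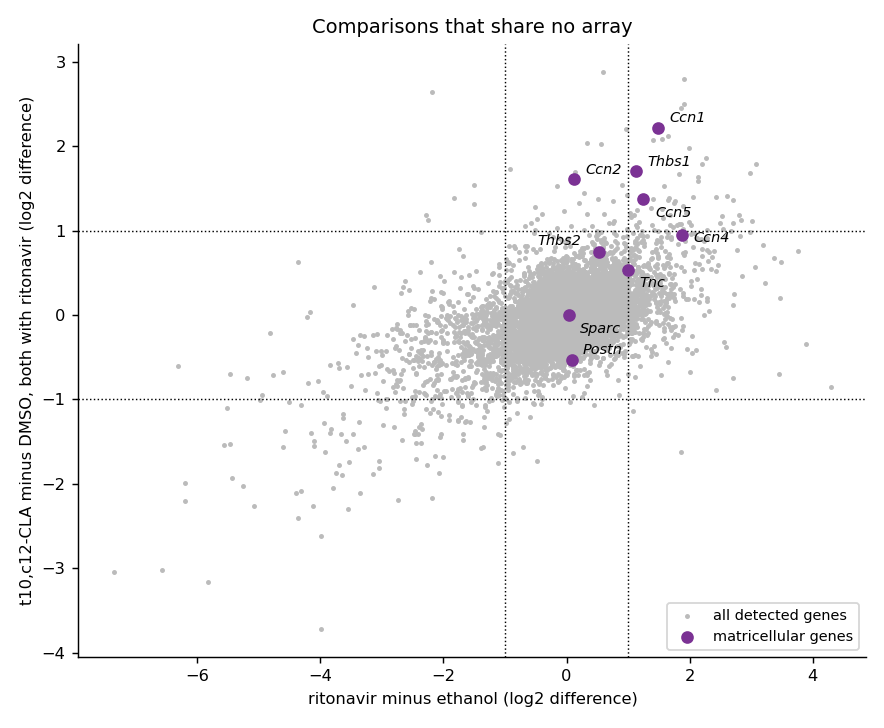
Log2 difference of ritonavir minus ethanol (horizontal axis) against that of t10,c12-CLA minus DMSO, both with ritonavir (vertical axis), for all detected genes (grey) and the 9 matricellular genes (purple), with dotted lines at 2-fold. Ccn1, Thbs1 and Ccn5 lie beyond 2-fold on both axes, Ccn4 and Tnc only on the horizontal one and Ccn2 only on the vertical one. Ccn2 is under the detection level on every array but that with t10,c12-CLA.

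Of 27 other matricellular genes listed, 16 were detected, and with ritonavir 3 of these exceeded ethanol by 2-fold or more and 1 was as far below it, with a median of 0.08. Mgp, the matrix Gla protein gene that restrains calcification, was 2.83-fold higher. The CCN gene Ccn3 differed by 1.47 and Fstl1 by 1.12, while Smoc1 differed by -1.94. Mgp (-2.41) and Fstl1 (-1.73) were also the ones at least 2-fold lower on the DMSO array than with ritonavir alone. With t10,c12-CLA Ecm1 was 1.70 above DMSO, as the 1 gene of this list beyond 2-fold.

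Of 30 listed integrins and other receptors 29 were measured and 23 detected. With ritonavir 1 lay at least 2-fold above ethanol and 3 below, with a median of -0.06. The count above is near the share over all detected genes, which was 4.56% higher, with 6.39% lower. The collagen receptor kinase gene Ddr2 differed by 1.94, and Cd36, a receptor of thrombospondin and of fatty acids that mature adipocytes express strongly, by -3.09. The laminin-binding integrin chains Itga6 (-2.71) and Itga7 (-2.11) were the other lower ones. On the DMSO array Cd36 was 2.92, Itga6 1.78 and Itga7 1.55 above the ritonavir array, and Itgb1, the common beta chain, was 1.04 below it. With t10,c12-CLA the collagen-binding chain Itga1 (-1.20) and Itga6 (-1.01) were below DMSO, and 0 receptors were at least 2-fold higher.

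Genes tied to the same upstream signals as Ccn1 and Ccn2, factors of these pathways included, did not form a single group. The SRF/MRTF list holds Srf, Mrtfa and Mrtfb themselves. Among 21 detected SRF/MRTF target and cytoskeletal genes 9 were at least 2-fold above ethanol and 2 below it with ritonavir, with a median of 0.54, led by Tagln (3.77), Actg2 (3.49) and Myl9 (3.02), while Fhl1 (-2.21) and Myh11 (-1.88, under the detection level with ritonavir) were lower. Smooth muscle markers, which overlap this list, had a mean of 8.50 with ethanol and 8.94 with ritonavir over the 8 of 10 detected. They did not move as one: 3 were at least 2-fold higher (Tagln, Actg2 and Acta2 at 2.54) and 2 lower (Mcam at -3.93 and Myh11). The part of these markers was not tested. On the DMSO array 11 of the 21 were at least 2-fold below the ritonavir array, with a median of -1.06. With t10,c12-CLA 4 lay at least 2-fold above DMSO and 0 below it, among them Cnn2 (1.41), Fhl2 (1.16) and Myl9 (1.11), and the median was 0.57.

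The list of YAP/TAZ-TEAD genes had 27 detected members with a median of 0.26 for ritonavir against ethanol. Of these, 5 were at least 2-fold higher and 2 lower. Besides targets the list holds the factors themselves, Yap1, Wwtr1 and Tead1 to Tead4, which differed by -0.01 (Yap1) to 0.75 (Tead2). Gadd45a (1.81), the membrane repair gene Myof (1.73) and the tissue factor gene F3 (1.54) were the highest, and Birc5 (5.67-fold lower), which is also a mitotic gene, and Foxf2 (-2.19) the lowest. On the DMSO array Birc5 was 1.34 above the ritonavir array, and Myof (-1.39), Axl (-1.13) and Rbms3 (-1.03) were below it. With t10,c12-CLA the receptor tyrosine kinase gene Axl (1.35) and Myof (1.04) were the 2 beyond 2-fold, and the median was 0.15.

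TGF-beta ligands, receptors and targets had a median of -0.18 with ritonavir, and 1 of 21 was at least 2-fold higher, Id3 at 2.19, and 1 lower, Pmepa1 at 2.83-fold. Both counts are near the shares over all detected genes, 4.56% higher and 6.39% lower. Pmepa1, a target that restrains the pathway, was 1.53 higher with t10,c12-CLA than with DMSO, where the median was 0.23, and Id3 was 1.13 lower on the DMSO array than with ritonavir alone. The class of immediate early genes, to which Ccn1 belongs, was mixed under ritonavir. Of 17 detected, 5 lay above 0, 6 were at least 2-fold lower and 1, Atf3 at 1.11, higher, with Fosl1 at -4.37, Egr2 at -1.98, Dusp1 at 2.83-fold lower and a median of -0.41. On the DMSO array Fosl1 was 1.71 above and Egr1 1.13 below the ritonavir array, and with t10,c12-CLA Dusp1 (1.32) was the 1 gene beyond 2-fold, with a median of 0.40.

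Proteases and inhibitors that act on matricellular proteins had, of the 7 lists of genes other than cell type markers, the largest share beyond 2-fold under ritonavir. With ritonavir 11 of 19 exceeded ethanol by at least 2-fold and 1 was as far below it, with a median of 1.11, or 9 and 0.94 with low values raised to the detection level. The plasminogen activator gene Plat (2.42), Ctsk (2.21) and the inhibitor gene Timp2 (1.86) were highest and Adamts12 (-1.60) lowest. On the DMSO array 7 were at least 2-fold lower than with ritonavir, with Plat at -2.39, Timp1 at -1.90 and Mmp3 at -1.66 (-0.94 when raised to the detection level). With t10,c12-CLA 3 were at least 2-fold higher than with DMSO, namely Timp1 (1.54), Plat (1.39) and the collagenase gene Mmp13 (1.25).

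Over the 6 arrays the mean log2 value of the 9 matricellular genes was 9.46 with ethanol, 10.30 with ritonavir, 9.48 with tenofovir, 8.99 with DMSO, 9.11 with c9,t11-CLA and 9.94 with t10,c12-CLA. That of the adipocyte markers was 12.93, 9.44, 12.95, 12.01, 12.15 and 10.78 in the same order. The arrays with ritonavir alone and with t10,c12-CLA were thus the highest for the matricellular genes and the lowest for the markers. The order of the means did not invert throughout, since the DMSO and c9,t11-CLA arrays were below ethanol for both. The matricellular mean takes in Ccn2, which counted as detected through the t10,c12-CLA array alone and so raises the mean there. The medians of the 9 genes were 8.24, 9.86, 8.35, 8.22, 8.26 and 9.41 in the same order of arrays. Among 12 detected preadipocyte and fibroblast markers the mean was 11.47, 11.99, 11.46, 11.02, 11.10 and 11.31. Macrophage markers, 5 of 10 detected, had means of 7.24, 7.58, 7.08, 7.69, 7.54 and 8.05, and its members did not move as one. Between ritonavir and ethanol Cd68 differed by 1.83, Cd14 by 0.31, Fcgr1 by 0.04, Csf1r by -0.19 and Lyz2 by -0.26, and between t10,c12-CLA and DMSO Cd68 differed by 1.67, Cd14 by 0.43, Csf1r by 0.15, Lyz2 by -0.22 and Fcgr1 by -0.25. The part of either list in the matricellular values was not tested.

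**Figure D5:**
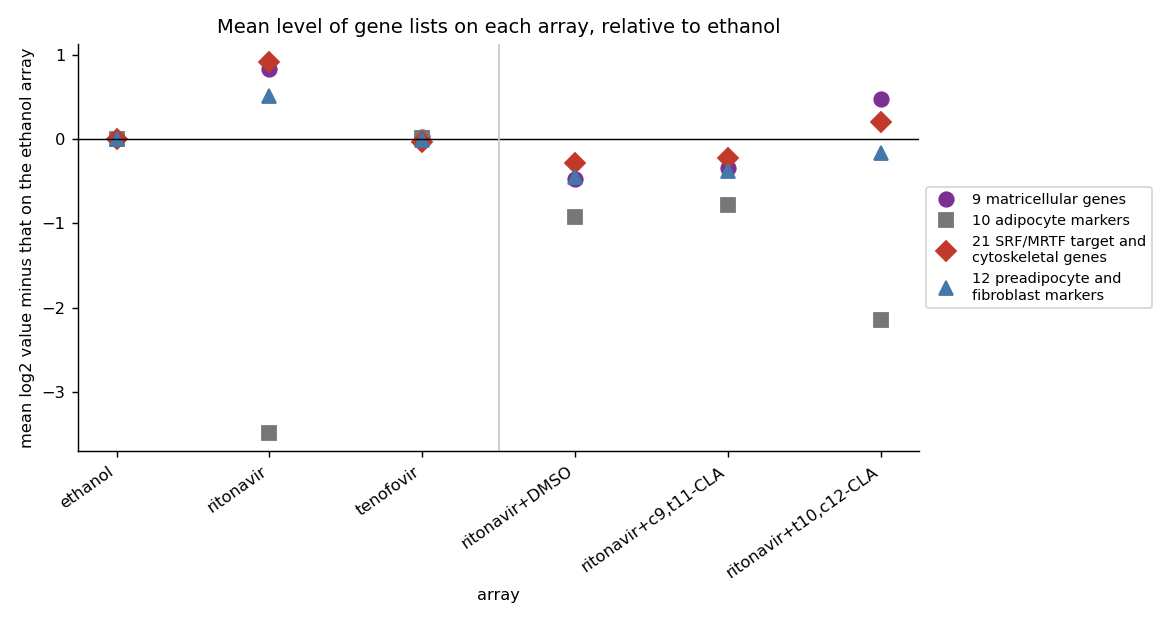
Mean log2 value of 4 gene lists on each array minus that on the ethanol array (vertical axis), by array (horizontal axis), with a grey line between the experiments and no error bars since each group has 1 array. The matricellular mean is highest with ritonavir (10.30, against 9.46 with ethanol) and with t10,c12-CLA (9.94), where the adipocyte marker mean is lowest (9.44 and 10.78). It includes Ccn2, which reached the detection level on the t10,c12-CLA array alone.

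Genes with the most similar course were sought among 1209 detected genes with an SD of at least 0.5 over the 6 arrays, by Pearson's r over these 6 points. Ccn1 was most like Fhl2 (0.977), Capg (0.974) and Pappa2 (0.974), and Thbs1 most like Pappa2 (0.991), Fhl2 (0.985) and Timp1 (0.978). Thbs2 was closest to Timp1 (0.979), Tpm4 (0.974) and Thbs1 (0.974). The list for Ccn4 was Cxcl5 (0.996), Loxl3 (0.996) and Plat (0.995), and that for Ccn5 Ccl7 (0.995), Ndrg4 (0.993) and Elk3 (0.993). The genes named for Ccn1, Ccn4 and Ccn5 did not overlap. Since only the nearest are named and their r values lie close together, no difference in course is read from this. Tnc was most like Islr (0.992), Fbln1 (0.982) and Ank3 (0.981), Postn like C1s1 (0.978), Col11a1 (0.942) and Tmem45a (0.929), and Ccn2 like Serpinb9b (0.967), Alpi (0.944) and Cd300lb (0.941). With 6 arrays, high values of r are common among 1209 genes, and these are given as a description.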

How the data were processed

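RNA pooled from 4 replicate experiments per group was, per the labels' protocols, hybridised to a single Affymetrix array for each group. The deposited log2 values were made by the authors with RMA in Affymetrix Expression Console, per the submitters' processing notes (version not given in the sources used here). The table holds 45101 probe sets on 6 arrays, with values from 2.17 to 15.01. Probe sets were named by the platform annotation, with symbols updated by gene identifier: 34958 carried 1 symbol, while 932 with several symbols and 9211 absent from the annotation were left out.

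Log2 differences between single arrays were taken for 7 comparisons, and those of 2-fold or more were counted over the 12386 detected genes. No test was made, since each group has 1 array, whose number limits precision. The counting was run on simulated data with known fold changes and the small spread between tenofovir and ethanol. This checks only that the counting works and is no test of the counts given here. Members and gene lists were chosen with earlier results of these data known, so nothing here is independent support for those results. All members are named, and of each list up to 3 genes per direction beyond 2-fold in 3 comparisons (ritonavir against ethanol, DMSO against ritonavir, t10,c12-CLA against DMSO), and the 3 genes most alike in course to each member with a range of at least 1.

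Alternatives tried were a gene's mean over its probe sets, probe sets without cross-hybridising suffixes, values raised to the detection level, quantile normalization again, removal of the trend on mean expression (lowess, span 0.3), 1.5-fold and 3-fold thresholds, other ritonavir arrays, a stricter detection level of 8.77, and, chosen after seeing the data, single probe sets and tenofovir as control. Promoter sequences are from RefSeq, build GRCm38.p6. Python 3.11.15, numpy 2.4.6, pandas 2.3.3, statsmodels 0.14.6 and matplotlib 3.10.9 were used.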

Additional observations from a re-analysis of the deposited data

Results flagged for a closer look

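The second experiment has no ethanol array, so both its DMSO array and the ritonavir array were set against the ethanol array of the first. These differences had opposite signs for 7 of the 9 matricellular genes, where the sign differed for 24.6% of all detected genes. Log2 differences from ethanol, without and with DMSO, were 1.49 and -0.79 for Ccn1, 1.24 and -0.15 for Ccn5, 1.13 and -0.89 for Thbs1, and 1.00 and -0.77 for Tnc. They were 0.53 and -0.59 for Thbs2, 0.09 and -1.22 for Postn, and 0.04 and -0.10 for Sparc. Both differences subtract the same ethanol array, the experiments also differ in the vehicle recorded, and the difference between them was not tested. For Ccn1 the probe sets did not share a sign with DMSO, and for Sparc, Ccn5 and Postn at least 1 of the values is within the spread seen between tenofovir and ethanol.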

How the results depend on the processing

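For ritonavir against ethanol, 5 of the 9 genes were at least 2-fold apart, and the count was 3 with the mean of all probe sets, 1 at 3-fold, 1 with the array of ritonavir and DMSO in place of the ritonavir array (Postn, lower, and 0 of the 5) and 1 with the mean of both (Ccn4). With that replacement Ccn1 (-0.79), Ccn5 (-0.15), Thbs1 (-0.89) and Tnc (-0.77) changed sign in the probe sets used. The cause was not tested. For Ccn1, 2 of its 4 probe sets stayed above 0, at 0.42 and 0.54, as did the unused, undetected one of Tnc at 0.23. The value of Ccn5 is within 0.24, where no order is read. For ritonavir with DMSO against ethanol the count of 1 became 5 at 1.5-fold and 0 at 3-fold, and against ritonavir the count of 7 became 4 at 3-fold. For t10,c12-CLA against c9,t11-CLA the count of 4 became 2 at 3-fold. In the other comparisons and settings run the counts stayed within 1.5 times. The 21 differences of at least 2-fold were recomputed under 5 settings of probe set, floor, normalization and trend. Of these 105 values 8 fell under 2-fold, for Ccn2, Thbs1, Thbs2 and Tnc, and 0 changed sign. That 0 says little. Raising low values cannot turn a sign, and renewed normalization or trend removal moved values by at most 0.20. Among smaller differences, Ccn1 for ritonavir with DMSO against ethanol went from -0.79 to 0.54 with probe sets without cross-hybridising suffixes. At the stricter detection level of 8.77, Ccn2 was not detected. No paired analysis was possible because each group has 1 array. The table has no background measure, so low values such as those of Ccn2 limit what can be said of them.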
